A study of Oryza sativa Indica Group with 6 samples.

Results

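WRKY transcription factors are a plant family named after a conserved stretch of amino acids in their DNA-binding domain, which recognises W-box elements in promoters. They are best known as switches of the immune response, where some members activate and others repress defence genes, and several also act in seed germination and hormone signalling. In rice group IIa, with *WRKY62*, *WRKY71* and *WRKY76*, includes repressors of defence that can form complexes with each other. The genes described here are those with a WRKY number as symbol or synonym in the NCBI rice gene table, joined by gene identifier to the platform table, with 1 transcript cluster for each gene. This gave 6 genes of 14662 with a cluster of their own, which are *WRKY76*, *WRKY62*, *WRKY71*, *WRKY51*, *WRKY24* and *WRKY9*. None of them had a second cluster, and none shared its signals with another cluster. *WRKY24* also carries the number WRKY8 in the gene table and *WRKY71* the number WRKY38. The numbering scheme behind the name *WRKY9* is not given there. Rice WRKY genes without a WRKY number in that table were not covered, so the 6 genes do not stand for the whole family. Of 17 rice WRKY genes listed as promoting defence, including *WRKY45*, *WRKY53* and *WRKY13*, the rule matched 0, so none of these listed genes was analysed here.

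Affymetrix Rice (Cn) Gene 1.0 ST arrays were used for RNA of whole seedlings, with root and shoot together. The 3 arrays of *Abp57* overexpression held T3 seedlings of the *indica* cultivar MR219, obtained by *Agrobacterium*-mediated transformation, and the 3 arrays of wildtype held untransformed MR219 as control. Both genotypes were 10 days old and grown on MS medium, and each array stood for a biological replicate pooled from at least 3 seedlings. The promoter of the transgene and the number of transformation events were not given in the sources used here. Values are log2 signals normalized by RMA (robust multi-array average), and a difference of 1 is a fold of 2. Signals of different genes come from different probes, so their levels are not set against each other.

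In a pooled seedling, fewer cells that use a gene and less RNA per cell cannot be told apart. Array medians lay between 5.21 and 5.30. The 3 measured root markers, of 8 listed, had summed linear signals of 262 to 354 in overexpressing and 240 to 334 in wildtype seedlings. The 6 measured shoot markers, of 9, had 3784 to 4286 in overexpressing and 2746 to 3379 in wildtype seedlings, a sum that rests on the bright genes *RCA* and *CAB1R*. The photosynthesis gene *RCA* was higher by 0.68 on the log2 scale (unadjusted p = 0.011, adjusted p = 0.64 by limma), the other 5 did not pass an unadjusted p under 0.05, and the median difference of the 6 was 0.11. The root markers *LSI2* and *NAR2.1* and all 6 shoot markers lay above the array medians on every array. The lowest marker, the root stem cell gene *QHB*, lay below them at 3.25 to 3.78, and the deposited table has no detection call for it. Wildtype replicate 3 stood apart, with 8 measured markers of dividing tissue (of 9) at a median deviation of -0.94 from the mean of the 6 arrays. The same median was 0.22, -0.35 and -0.21 on the overexpressing arrays and 0.59 and 0.64 on the remaining wildtype arrays, each by replicate number. The part of the shoot and dividing tissue markers in the WRKY signals was not tested, and results are also given without wildtype replicate 3 where it changed them.

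The neighbouring repressor genes *WRKY76* and *WRKY62* were the only members whose genotypes did not overlap, both with the lower signals in overexpressing seedlings. The other 4 members had overlapping signals, and each of their differences was smaller than the SD among wildtype replicates. By limma 0 of 6 genes passed an adjusted p under 0.05, where 0.0144% of all clusters did, and 1 of 6 passed an unadjusted p under 0.05, namely *WRKY76*, which was lower. Over all clusters 3.62% were lower and 3.27% higher at that p. With the methods' test, an unpaired analysis of variance, 0 passed after adjustment and 2, *WRKY76* and *WRKY62*, at an unadjusted p under 0.05. By the methods' test 6.41% of all clusters passed that unadjusted p in either direction. None reached fold over 2 with an unadjusted p under 0.05, a threshold passed downward by 0.172% and upward by 0.335% of clusters. The 2 genes with genotypes apart, both lower, stand beside 7.53% of all clusters that were apart and lower and 5.51% that were apart and higher. The median difference of the 6 genes was -0.16, against -0.030 over all clusters, but -0.0037 without wildtype replicate 3 and -0.016 without overexpressing replicate 1. With all arrays 5 of 6 differences were below 0, as were 55.7% over all clusters.

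**Figure D1:**
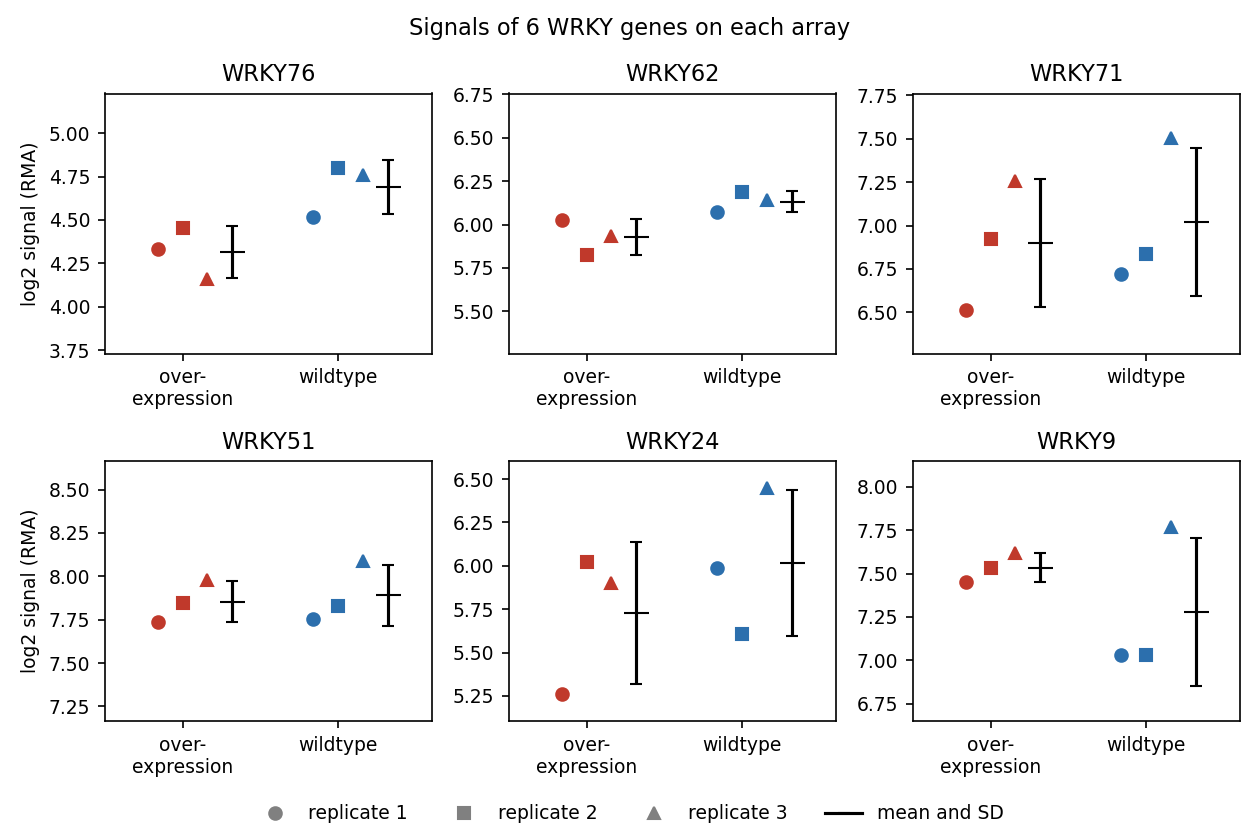
Log2 RMA signal of each WRKY gene on the 3 overexpressing (red) and 3 wildtype (blue) arrays, with symbols for the replicate and a bar for mean and SD; each panel spans 1.5 log2 units. *WRKY76* and *WRKY62* have all red points below all blue points, and wildtype replicate 3 is the highest array for *WRKY71*, *WRKY51*, *WRKY24* and *WRKY9*.

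*WRKY76* encodes a group IIa repressor that lowers blast resistance and phytoalexin synthesis when overexpressed in rice. Its signal was 4.33, 4.45 and 4.16 in overexpressing replicates 1, 2 and 3, against 4.51, 4.80 and 4.76 in wildtype replicates 1, 2 and 3. The highest overexpressing array thus lay 0.063 below the lowest wildtype array. Means were 4.31 ± 0.15 in overexpressing and 4.69 ± 0.15 in wildtype seedlings (SD, n = 3 each). The log2 difference was -0.38 (standard error 0.15, 95% interval -0.73 to -0.03, unadjusted p = 0.037, adjusted p = 0.71 by limma), or 0.770 as a fold. A larger absolute difference was found in 11.8% of all clusters. The unadjusted p did not stay under 0.05 without wildtype replicate 2 (difference of -0.32), wildtype replicate 3 (-0.34), overexpressing replicate 1 (-0.39) or overexpressing replicate 3 (-0.30). Over all alternatives the adjusted p of *WRKY76* ran between 0.46 and 0.99 by limma and the methods' test. All 6 signals were below the array medians, so *WRKY76* was measured at the dim side of the array, and the deposited table has no detection call for it.

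*WRKY62*, also named XB10, encodes a group IIa factor that binds the immune receptor XA21 and represses resistance to bacterial blight. No gene starts between *WRKY62* and *WRKY76* in the NCBI table. Overexpressing replicates 1, 2 and 3 had signals of 6.03, 5.82 and 5.93, against 6.07, 6.19 and 6.14 in wildtype replicates 1, 2 and 3. The genotypes were 0.043 apart, the narrower gap of the pair. It was also the steadiest member in wildtype, with an SD of 0.059 that 92.3% of all clusters exceeded, and the means were 5.93 ± 0.10 in overexpressing and 6.13 ± 0.06 in wildtype seedlings (SD, n = 3 each). The log2 difference of -0.20 (standard error 0.13, 95% interval -0.51 to 0.10, adjusted p = 0.80 by limma) did not pass at an unadjusted p of 0.16. By the methods' test, which does not share the spread between clusters, the unadjusted p was 0.040. The sequences of the probes were not used here, so signal that close copies of the family could share was not checked.

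**Figure D2:**
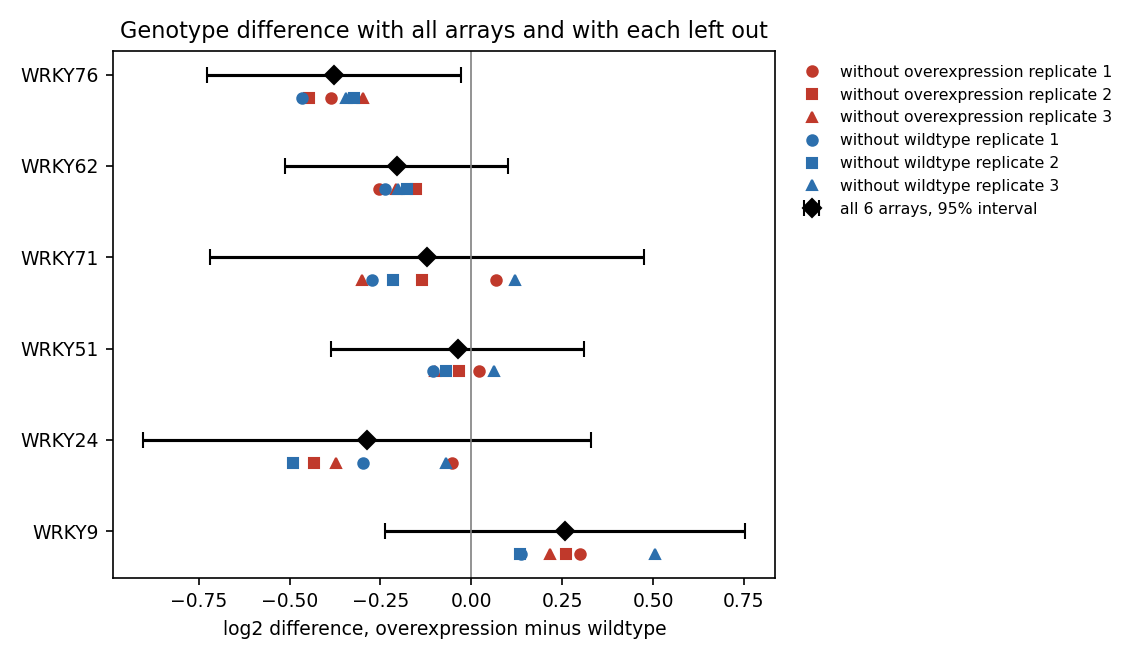
Log2 difference of overexpressing minus wildtype seedlings for each WRKY gene: black diamonds with 95% intervals are from all 6 arrays by limma, coloured symbols from fits without 1 array. The interval of *WRKY76* alone excludes 0, and *WRKY71* and *WRKY51* have estimates on both sides of 0 according to the array left out.

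*WRKY71* is the third measured member of group IIa. It is induced by pathogens and also represses gibberellin-induced genes in the aleurone, the outer layer of the endosperm. Unlike the neighbouring pair, its genotypes overlapped over most of their range, with 6.52, 6.92 and 7.26 in overexpressing replicates 1, 2 and 3 and 6.72, 6.84 and 7.51 in wildtype replicates 1, 2 and 3. The log2 difference was -0.12 (standard error 0.26, 95% interval -0.72 to 0.47, adjusted p = 0.94 by limma). Its direction was set by single arrays, at 0.12 without wildtype replicate 3 and 0.069 without overexpressing replicate 1. The SD was 0.37 in overexpressing and 0.42 in wildtype seedlings, and 12.7% of all clusters had a larger SD in wildtype.

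*WRKY51* encodes a factor that interacts with WRKY71 and strengthens its repression of an amylase gene in aleurone cells. Its signals were close together, with 7.74, 7.85 and 7.98 in overexpressing replicates 1, 2 and 3 and 7.76, 7.83 and 8.09 in wildtype replicates 1, 2 and 3. The highest and the lowest array were again wildtype replicate 3 and overexpressing replicate 1. With a log2 difference of -0.037 (standard error 0.15, 95% interval -0.39 to 0.31, adjusted p = 0.97 by limma) it had the smallest difference of the 6 genes, and 86.1% of all clusters had a larger one. The sign turned without wildtype replicate 3 (0.062) and without overexpressing replicate 1 (0.021). The intervals of all 6 genes, that of *WRKY51* included, exclude a fold of 2 in both directions.

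The arrays stood in the same order for *WRKY51* as for *WRKY71*. From high to low they ran wildtype 3, overexpressing 3, overexpressing 2, wildtype 2, wildtype 1 and overexpressing 1, so the genotypes were interleaved. In the paper the RNA of replicate 3 of each genotype had the highest integrity, if its sample numbers are those of the arrays. Overexpressing replicate 1, the lowest array here, had the next highest. The part of RNA integrity in this order was not tested. Over the 6 arrays Pearson's r was 0.99 (exact permutation test, two-sided, p = 0.0014, the smallest that the orderings of 6 arrays can give, 0.021 adjusted over 15 pairs of members) and Spearman's rho was 1.00 (exact permutation p = 0.0028, 0.042 adjusted). Without the 2 arrays farthest from the median of *WRKY51* r was 0.93, and r of the deviations from the genotype means was 0.99. The range was 0.35 log2 units for *WRKY51* and 0.99 for *WRKY71*. Of the 41769 other clusters, 7 had an r with *WRKY71* at least as high, and *WRKY51* was one of these. No other pair of members passed the adjustment, the next by Pearson's r being *WRKY24* with *WRKY71* (r = 0.81, exact permutation p = 0.049, 0.30 adjusted), whose r was 0.069 without the 2 arrays farthest from the median of *WRKY24*. Each genotype had 3 arrays, too few for a correlation within it.

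**Figure D3:**
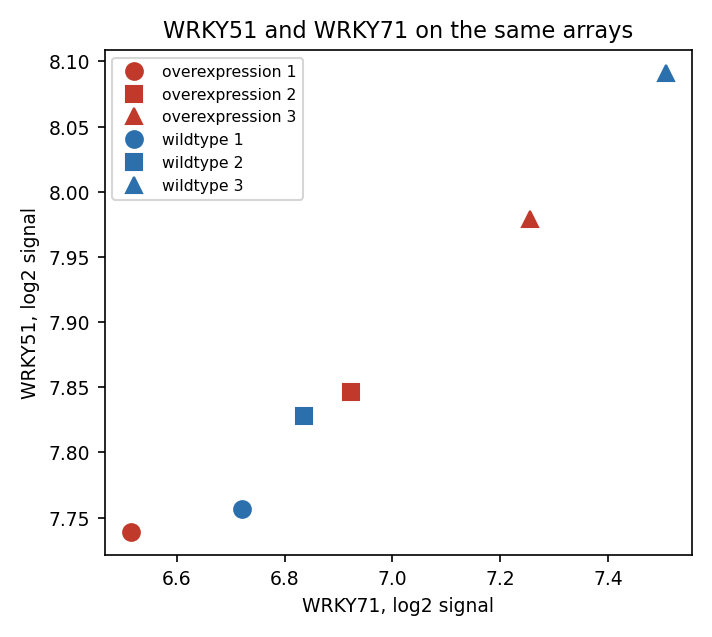
Log2 signal of *WRKY51* against that of *WRKY71* on the same array, 3 overexpressing (red) and 3 wildtype (blue) arrays, each axis on its own scale. The points lie near a line on which the genotypes alternate, with overexpressing replicate 1 at the lower and wildtype replicate 3 at the upper end.

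*WRKY24* encodes a repressor of abscisic acid and gibberellin responses in aleurone cells. It had 5.26, 6.02 and 5.90 in overexpressing replicates 1, 2 and 3 and 5.99, 5.61 and 6.45 in wildtype replicates 1, 2 and 3. Overexpressing replicate 1 was the lowest and wildtype replicate 3 the highest of the 6 arrays, and the other 4 were mixed. The difference between the means was -0.29 (standard error 0.27, 95% interval -0.90 to 0.33, adjusted p = 0.85 by limma), within an SD of 0.41 in overexpressing and 0.42 in wildtype seedlings. It was -0.053 without overexpressing replicate 1 and -0.070 without wildtype replicate 3.

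*WRKY9* was the only member with the higher mean in overexpressing seedlings. Its signals were 7.45, 7.53 and 7.62 in overexpressing replicates 1, 2 and 3 and 7.03, 7.03 and 7.77 in wildtype replicates 1, 2 and 3. The overexpressing arrays were close together, with an SD of 0.083, while the wildtype SD of 0.43 came from replicate 3, which lay 0.74 above the other wildtype arrays. The other 2 wildtype arrays had equal signals at this precision. The log2 difference was 0.26 (standard error 0.22, 95% interval -0.24 to 0.75, unadjusted p = 0.26, adjusted p = 0.84 by limma). Without wildtype replicate 3 it was 0.50 and passed an unadjusted p, at 0.0094, but not the adjusted one, at 0.25, and in that fit 5.87% of all clusters were higher at an unadjusted p under 0.05.

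The wildtype SD of *WRKY71*, *WRKY24* and *WRKY9* was above the median of 0.20 over all clusters, and that of *WRKY51*, *WRKY76* and *WRKY62* below it. Wildtype replicate 3 was the highest wildtype array for 4 of 6 genes, *WRKY71*, *WRKY51*, *WRKY24* and *WRKY9*, where 35.3% of all clusters had it highest and 39.0% lowest. It exceeded the higher of the other wildtype arrays by 0.67, 0.26, 0.46 and 0.74 for these genes. For *WRKY62* and *WRKY76* wildtype replicate 2 was the highest, and replicate 3 lay 0.048 and 0.043 below it. Overexpressing replicate 1 was the lowest of its genotype for the same 4 genes, and 16.8% of all clusters had both features. Over the 6 genes the median SD was 0.13 in overexpressing and 0.30 in wildtype seedlings, against 0.19 and 0.20 over all clusters. No gene had a wildtype SD near 0.30, since *WRKY51* had 0.18 and *WRKY24* 0.42 on either side of it. *WRKY24*, *WRKY71* and *WRKY76* had similar SDs in both genotypes, whereas *WRKY9* had 0.083 in overexpressing and 0.43 in wildtype seedlings. A wider range in wildtype was found for 4 of 6 genes and for 52.5% of all clusters.

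**Figure D4:**
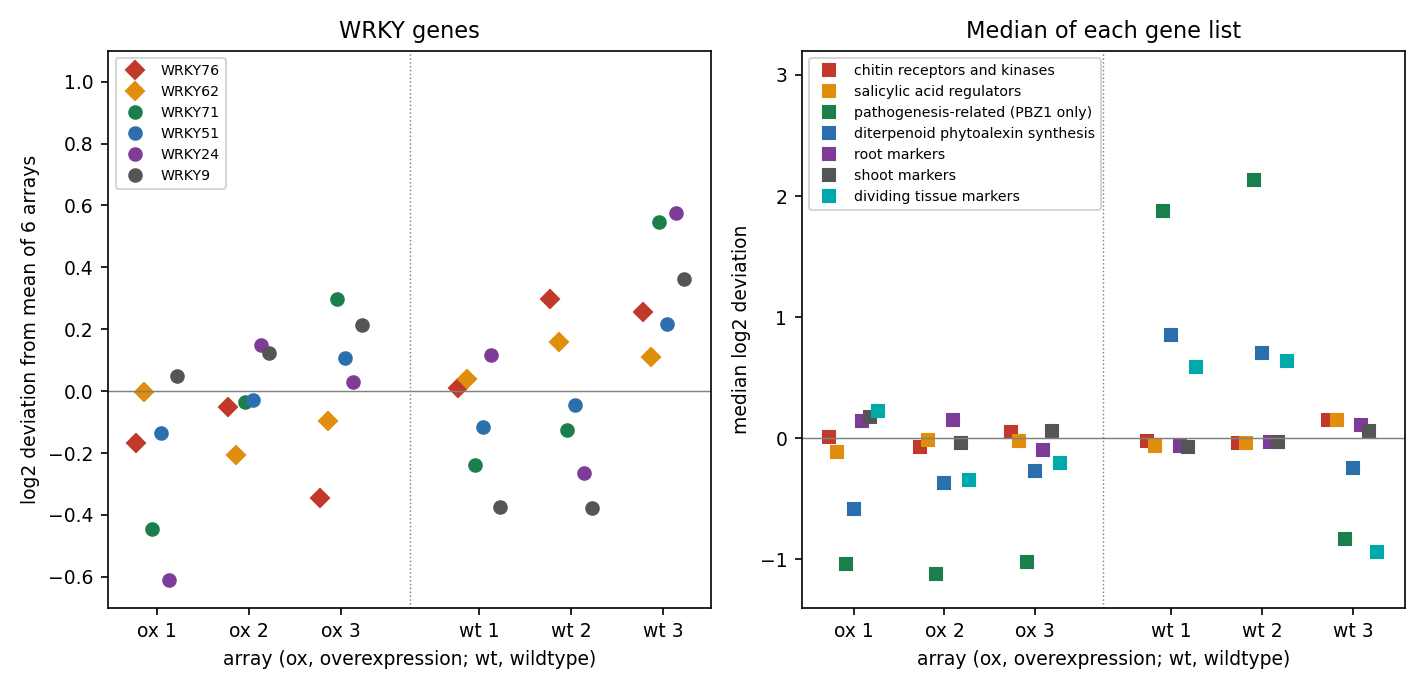
Left, log2 deviation of each WRKY gene from its mean over the 6 arrays; right, median deviation of each gene list, with overexpressing arrays (ox) left of wildtype arrays (wt). Wildtype replicate 3 has *WRKY71*, *WRKY51*, *WRKY24* and *WRKY9* at 0.22 to 0.58, while markers of dividing tissue are at -0.94 and phytoalexin genes at -0.24 there.

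Genes that act before and after WRKY factors were taken from 4 lists. Upstream, chitin receptors and kinases turn on WRKY factors of the immune response. Of 22 names 6 were measured, and none passed an unadjusted p under 0.05, with differences between -0.16 and 0.52 and a median of -0.034. The mitogen-activated protein kinase gene *MAPK5*, also listed as *MPK5*, had 6.86, 7.97 and 7.93 in overexpressing replicates 1, 2 and 3 and 7.51, 7.41 and 8.14 in wildtype replicates 1, 2 and 3. As for *WRKY24*, overexpressing replicate 1 was lowest and wildtype replicate 3 highest. Of 23 names of salicylic acid regulators 7 were measured and 1 passed an unadjusted p, *TGAL1*, a gene of TGA-type transcription factors. It had 5.75, 5.80 and 5.82 in overexpressing replicates 1, 2 and 3, against 6.68, 6.26 and 6.12 in wildtype replicates 1, 2 and 3. The log2 difference of -0.56 (standard error 0.17, unadjusted p = 0.011, adjusted p = 0.63 by limma) left the genotypes apart and was below fold over 2. *NH1*, the rice counterpart of the salicylic acid receptor gene *NPR1*, had -0.39 (standard error 0.18, unadjusted p = 0.067 and adjusted p = 0.74 by limma).

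Downstream, 6 phytoalexin genes and *PBZ1* were lower in overexpressing seedlings, each by more than any WRKY gene. Of 25 names of diterpenoid phytoalexin synthesis 9 were measured, 4 fell by fold over 2 with an unadjusted p under 0.05, 6 were lower at the unadjusted p alone and none was higher, with a median difference of -0.95. Over all clusters 0.172% and 3.62% were lower by these rules. None of the 9 passed an adjusted p under 0.05 by limma, the lowest being 0.18 for *CPS4*, and by the methods' test *CPS4* and *KOL4* alone passed an unadjusted p under 0.05. Of 15 names of pathogenesis-related genes 1 was measured, *PBZ1*, with a mean of 5.06 ± 0.05 in overexpressing seedlings (SD, n = 3) and with 8.26 in wildtype replicate 2 and 5.30 in wildtype replicate 3. *PBZ1* fell in the comparison of means (-2.12, standard error 0.68, unadjusted p = 0.014, adjusted p = 0.65 by limma), yet wildtype replicate 3 lay close to the overexpressing arrays. The diterpene cyclase gene *CPS4* kept all wildtype arrays high, with 4.05, 4.87 and 4.20 in overexpressing replicates 1, 2 and 3 and 6.13, 5.79 and 5.74 in wildtype replicates 1, 2 and 3. Wildtype replicate 3 lay inside the overexpressing range for *CPS2*, *KSL7* and *CYP71Z7* and just above it for *KSL4*. For *KOL4* it had 4.23, which was 0.41 above the highest overexpressing array, against 6.22 and 5.51 in wildtype replicates 1 and 2. *CPS4* alone of the 6 phytoalexin genes had wildtype replicate 3 near another wildtype array. For *WRKY62* and *WRKY76* wildtype replicate 3 lay among the wildtype arrays, as for *CPS4*. Across the 4 lists 5 genes fell by fold over 2 with an unadjusted p under 0.05 by limma, as did 72 of all 41770 clusters. They numbered 2 by the methods' test, 3 without wildtype replicate 2 and 7 without wildtype replicate 3. The counts over all clusters were 27, 63 and 196 in these fits. These genes were chosen with their earlier results known, and the part of the WRKY genes in their levels was not tested.

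**Figure D5:**
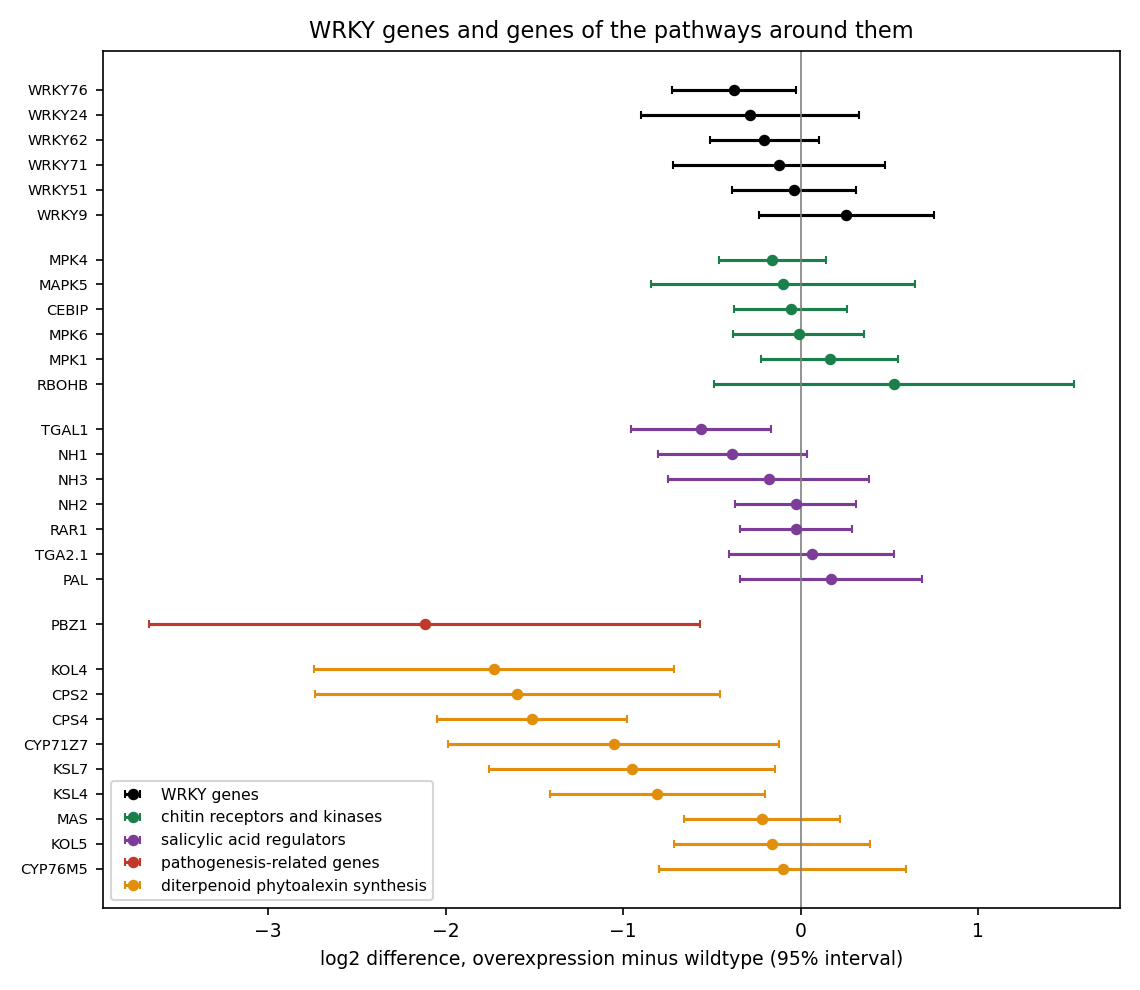
Log2 difference of overexpressing minus wildtype seedlings with 95% interval (limma, 3 arrays for each genotype) for the 6 WRKY genes and the measured genes of 4 pathway lists. WRKY genes lie between -0.38 and 0.26, whereas 6 of 9 phytoalexin genes and *PBZ1* have intervals below 0.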

How the data were processed

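The authors used RMA, within Affymetrix Expression Console, to normalize the scanned arrays. The log2 signals they deposited, for 41770 transcript clusters, were used unchanged. Versions and the genome build of the array design were not given in the sources used here. Names came from the platform table (15299 clusters with 1 gene, 436 with several, 26035 with none) through the NCBI rice assembly ASM3414082v1, of another subspecies, so no coordinates are given. Sequences were not used here.

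Genotypes were compared by lmFit and eBayes of limma 3.58.1 under R 4.3.3 (all clusters and arrays, no covariate, Benjamini-Hochberg over all clusters, 95% intervals), tested on simulated data. Pairs of genes were compared with exact permutation over arrays. Members and lists were chosen with earlier results of these data known. Named were all 6 WRKY genes, which the rule (p, difference, level, wildtype range, role) covered, and list genes at an unadjusted p under 0.05, as counts or with values; *MAPK5* and *NH1* were named after their values were seen. As alternatives, each array was left out, the methods' test was run, the signals were renormalized by cyclic loess or quantiles, and limma was run with a replicate block, RNA integrity as covariate, array weights, an intensity trend, the dimmest 25% of clusters removed or a gene's clusters averaged. The number of arrays limits the precision. Replicates are biological per the labels.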

Additional observations from a re-analysis of the deposited data

How the results depend on the processing

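No WRKY gene passed the adjusted p or fold over 2 in any of the 15 alternatives. WRKY genes at an unadjusted p under 0.05 numbered 1 by limma and 2 by the methods' test and with array weights. They numbered 0 with quantile normalization, cyclic loess or RNA integrity as covariate, and 0 to 1 with 1 array left out. The share of all clusters at that p was 6.88% by limma, 6.41% by the methods' test and 10.7% with array weights. It was 6.69% with quantile normalization, 6.6% with cyclic loess and 6.58% with RNA integrity as covariate. With 1 array left out it ran from 4.45% to 11.8%. The pathway genes that fell by fold over 2 with an unadjusted p under 0.05 numbered 5 by limma. They numbered 2 by the methods' test and 3 to 7 with 1 array left out. Of all clusters 72, 27 and 54 to 196 fell by the same rule in these fits. *WRKY51* turned to 0.050 and *WRKY71* to 0.11 with array weights. With 1 array left out *WRKY51* ran from -0.10 to 0.062 and *WRKY71* from -0.30 to 0.12, both above 0 without wildtype replicate 3 (0.062 and 0.12) or overexpressing replicate 1 (0.021 and 0.069), while *WRKY76*, *WRKY62*, *WRKY24* and *WRKY9* kept their direction throughout. *WRKY9* passed an unadjusted p with array weights (difference 0.41). *WRKY76* did not pass it with quantile normalization (-0.34), cyclic loess (-0.32) or RNA integrity as covariate (-0.37). The cause was not tested. The median difference ran from -0.25 (without wildtype replicate 1) to -0.0037 (without wildtype replicate 3) with 1 array left out, and the median wildtype SD from 0.26 to 0.30 over normalizations. Deviations of arrays of one replicate number were correlated unevenly over all clusters (r = 0.35, -0.11 and 0.21 for replicates 1, 2 and 3). The numbers were not taken as pairs, as in the methods' unpaired test. With the replicate block 1 WRKY gene passed the unadjusted p and 5 pathway genes fell, as without it. By the same rule 84 of all clusters fell with the block. Over all clusters the share at an unadjusted p under 0.05 by limma was 8.39% with the block and 6.88% without it. Each member has 1 cluster, so averaging a gene's clusters left its difference as it was.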

Other observations

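The NADPH oxidase gene *RBOHB*, which makes reactive oxygen in the immune response, varied in the opposite way to *WRKY71* across the arrays that stood apart. It had 8.67, 7.66 and 7.59 in overexpressing replicates 1, 2 and 3 and 7.94, 7.94 and 6.46 in wildtype replicates 1, 2 and 3, so that overexpressing replicate 1 was highest and wildtype replicate 3 lowest. The genotypes overlapped, and the log2 difference was 0.52 (standard error 0.44, unadjusted p = 0.27 and adjusted p = 0.84 by limma). The shoot marker *PORA* likewise had overexpressing replicate 1 highest, at 9.45, and wildtype replicate 3 lowest, at 7.21. The root marker *LSI2* had them at 7.89 and 6.90, so the pattern was not particular to *RBOHB*. The remaining measured root and shoot markers did not have it. Markers of dividing tissue also had their lowest median on wildtype replicate 3. The share of all clusters with the whole pattern of *RBOHB* was not counted. Taken singly, overexpressing replicate 1 was highest of its genotype in 31.6% of all clusters and wildtype replicate 3 lowest in 39.0%. *RBOHB* was named after its values were seen.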
